A study of Emberiza melanocephala with 15 samples.

Results

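The genes described here were the 200 assembled genes of the blackheaded bunting hypothalamus whose level at hour 22 of an extended light period lay farthest below every earlier bird, in photosensitive and photorefractory birds alike. The estimated counts of all transcripts of an assembled gene were added up and scaled to 1000000 counts per library (CPM). A gene could enter if its summed count was at least 20 in each of the 12 birds of hours 10, 14 and 18, which held for 13561 of 317533 assembled genes. The gap of a gene was the lowest log2(CPM + 1) of those 12 birds minus the highest of the 3 birds of hour 22, and the 200 largest gaps were taken. The genes were thus chosen by their levels at hour 22 against hours 10 to 18, and the values of that contrast are given as a description, without a test and in support of nothing.

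The study compared the course of hypothalamic RNA through the first day of extended light between seasonal states. RNA was sequenced from 15 adult male birds caught from the wild, 8 photosensitive and 7 photorefractory, with 1 library per bird. Photosensitive birds had been kept on short days, shortened further before the experiment, and had not yet been stimulated to breed. Photorefractory birds had been kept on long days until they no longer responded to them. On the day of sampling the lights were not turned off in either state, and the hypothalamus was taken at hour 10, 14, 18 or 22 after light onset. Each group held 2 birds except photorefractory hour 22, which held 1 after a second sample failed the quality check of the study. The light history differed between the states, so state and light history cannot be told apart.

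In birds of temperate latitudes, light that falls late in the day is read by receptors in the brain and starts a hypothalamic cascade. Thyrotropin from the pars tuberalis raises the deiodinase that activates thyroid hormone and lowers the one that degrades it, and gonadotropin-releasing hormone follows. In the photorefractory state long days no longer drive this cascade, which ends the breeding season. The hypothalamus also carries a circadian clock, and many of its transcripts follow the time of day.

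The identifiers come from a de novo assembly and are paired with no gene name in the sources used here. The 200 genes are therefore given by identifier, level, length and number of transcripts, and the function of none is stated. For the same reason, the tissue was not checked against its markers, and no pathway list or sequence is given. An assembled gene is a group of transcripts that the assembler kept together, and may hold part of a gene. In whole hypothalamus, fewer cells of a type and less RNA per cell cannot be told apart.

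Library totals ranged from 3176062 to 9403923 pseudoaligned reads. The 3 libraries of hour 22 were the deepest of all, and the pair of photorefractory hour 18 the shallowest. That pair also had the shortest mean fragments, 230 and 208 nt, against 241 to 262 nt in the other 13 libraries. A count of 0 allows up to 3 counts, or 0.319 CPM in the deepest and 0.945 CPM in the shallowest library, and covers counting error only.

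At hour 22 the 200 genes together held a fraction of their earlier share of the library. Their summed level was between 10806 and 18896 CPM in the 12 birds of hours 10 to 18. It was 4589 and 3909 CPM in the photosensitive birds of hour 22 and 4560 CPM in the photorefractory bird. The highest bird of hour 22 was thus well below the lowest of the earlier birds, as the rule requires of each gene. Over all 13561 genes that met the minimum, 2621 had all 3 birds of hour 22 below all 12 earlier birds, or 19.3%. The 200 genes are the end of that list with the largest gaps, which ranged from 0.78 to 3.36 on the log2 scale with a median of 0.91. The minimum was asked of the 12 earlier birds alone, which favours genes lower at hour 22 among all genes that met it.

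**Figure D1:**
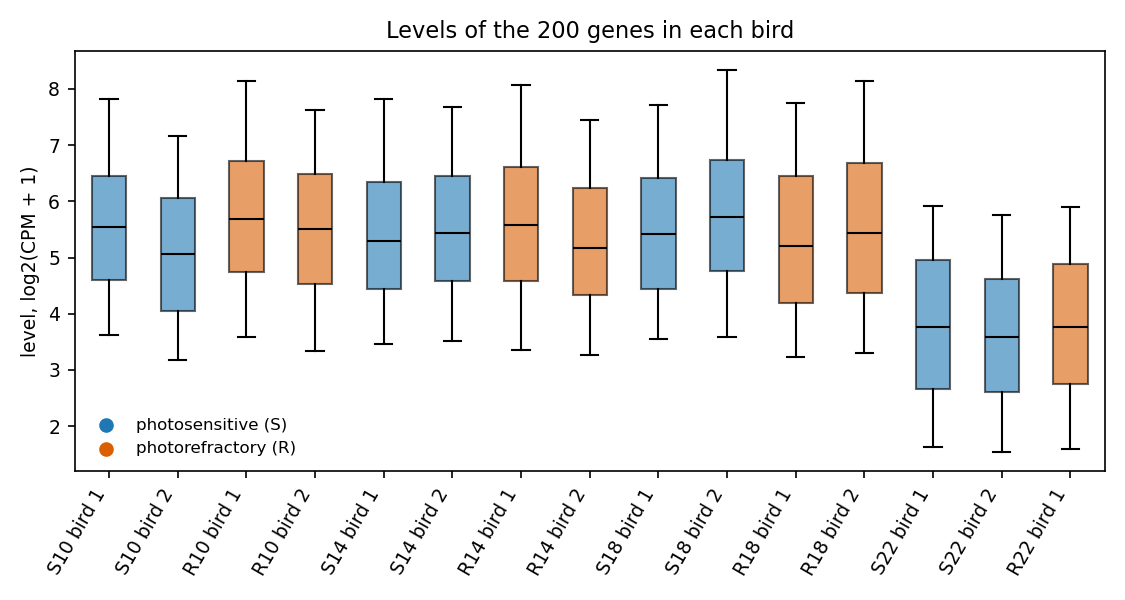
Levels of the 200 genes in each of the 15 birds, as log2(CPM + 1), with birds named by state (S photosensitive, R photorefractory), hour and number. Boxes span the quartiles with the median as a line and whiskers run from the 5th to the 95th percentile of genes; the medians are 5.07 to 5.73 at hours 10 to 18 and 3.58 to 3.76 at hour 22.

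The size of the difference was moderate for most genes and large for a few. The mean log2(CPM + 1) at hour 22 was lower than at hours 10 to 18 by a median of -1.65 over the 200 genes, with a range from -4.91 to -1.08. Over all genes that met the minimum the median difference was -0.12, and 56.7% of them were lower by mean. In CPM the 200 genes were a median of 3.48-fold lower, with quartiles of 2.95-fold and 4.40-fold. The difference exceeded 8-fold in 9 genes, was above 4-fold and up to 8-fold in 62, above 3-fold and up to 4-fold in 73, and 3-fold or less in 56.

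The genes covered a broad range of abundance. Their mean level at hours 10 to 18 ran from 6.95 to 748 CPM, with a median of 45.2 CPM, and the median at hour 22 was 12.2 CPM. There were 41 genes above 100 CPM and 41 under 20 CPM. The 10 most abundant held 27.8% of the summed level. Counts at hour 22 were high enough to measure most of them: 135 genes had at least 50 counts in all 3 libraries of hour 22, 17 had fewer than 20 in at least 1, and 1 had a count of 0.

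The largest gap belonged to TRINITY_DN84224_c1_g1, whose 6 transcripts are all short, with 251 nt in the most abundant. Its level was 78.7 and 52.8 CPM in the photosensitive pair of hour 10, 107 and 84.7 in that of hour 14, and 98.2 and 143 in that of hour 18. The photorefractory pairs of the same hours had 119 and 134, 140 and 68.2, and 87.2 and 101 CPM. At hour 22 it was 0.62 and 4.25 CPM in photosensitive birds and 3.13 CPM in the photorefractory bird, from 5, 40 and 28 counts. The hour 22 birds of both states were at least an order of magnitude below every other bird. Among the earlier groups photosensitive hour 10 was the lowest, and photorefractory hour 14 was the one group it overlapped.

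The second gap belonged to TRINITY_DN80835_c7_g1, with 4 transcripts and 271 nt in the most abundant. Its level in the 12 earlier birds ran from 6.19 CPM in a photorefractory bird of hour 18 to 36.0 CPM in a photosensitive bird of hour 10. At hour 22 it had counts of 0 and 1 in the photosensitive birds and 1 in the photorefractory bird. The pooled rate at hours 10 to 18, from 1037 counts, was 217 times that at hour 22, from 2 counts, with an exact 95% counting interval of 59.9 to 1790. The interval pools birds that differed in level and covers counting error only, and the contrast is the one that chose the gene.

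The most abundant of the 200 genes was TRINITY_DN85698_c3_g4, with 1962 nt in its main transcript. Its level was 626 and 660 CPM in the photosensitive pair of hour 10, 602 and 787 in that of hour 14, and 715 and 687 in that of hour 18. The photorefractory pairs of the same hours had 913 and 674, 813 and 626, and 788 and 1082 CPM. At hour 22 the levels were 244 and 177 CPM in photosensitive birds and 206 CPM in the photorefractory bird. The photorefractory bird of hour 22 lay between the photosensitive ones, and each was supported by 1664 or more counts.

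The next in abundance, TRINITY_DN82530_c1_g2, with 949 nt in its main transcript, had a similar profile. Its level was 684 and 453 CPM in the photosensitive pair of hour 10, 649 and 696 in that of hour 14, and 780 and 1069 in that of hour 18. The photorefractory pairs of the same hours had 810 and 635, 786 and 601, and 626 and 694 CPM. The birds of hour 22 had 234 and 193 CPM in the photosensitive state and 229 CPM in the photorefractory state. The highest earlier bird was number 2 of photosensitive hour 18 and the lowest was number 2 of photosensitive hour 10, and these same birds recur below.

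**Figure D2:**
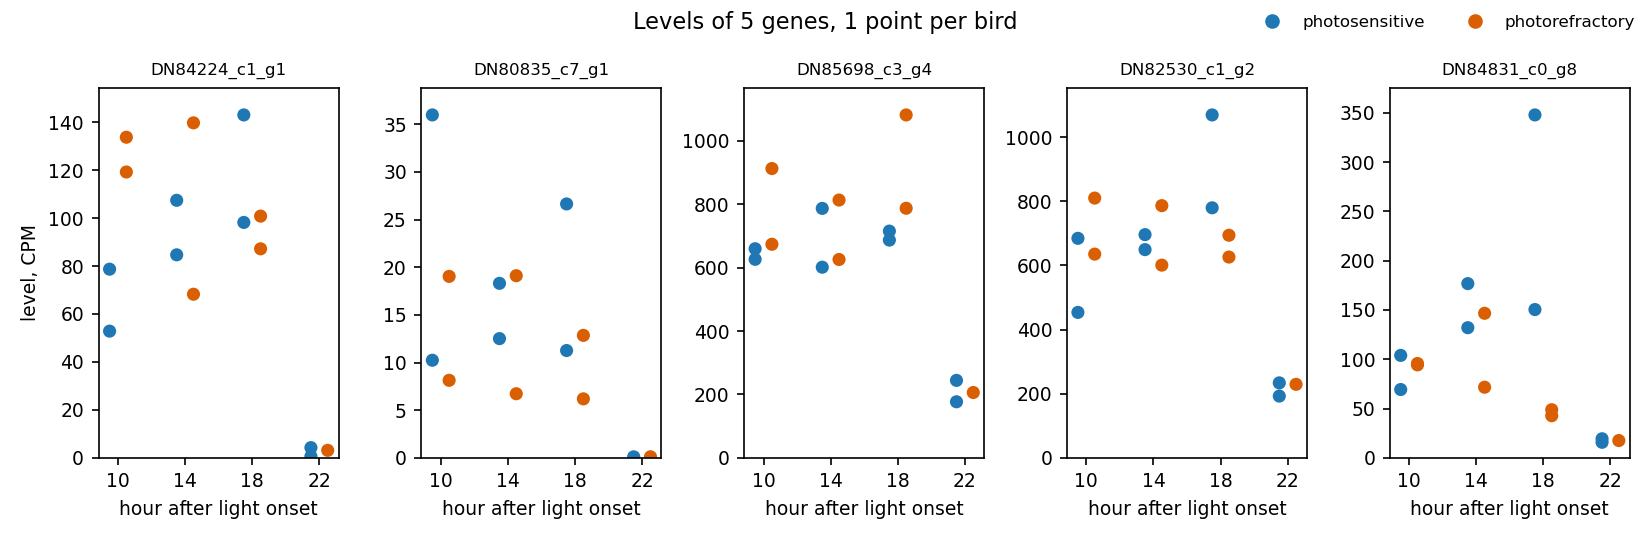
Level in CPM (linear axis from 0) against hour after light onset for 5 of the 200 genes, 1 point per bird, with the TRINITY prefix left off the identifiers. The first has 52.8 to 143 CPM at hours 10 to 18 and 0.62 to 4.25 CPM at hour 22. The last is the gene that passed the interaction test of state and hour 18, a call that 5 of 21 alternatives kept.

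The list has no natural edge. The gene at rank 200 had a gap of 0.7814, with 10.9 to 20.6 CPM in the 12 earlier birds and 5.21, 3.19 and 5.92 CPM at hour 22. The gene at rank 201, just outside, had a gap of 0.7781, with 7.99 to 31.2 CPM in the earlier birds and 3.22, 2.87 and 4.25 CPM at hour 22. The excluded gene had the larger difference of means, 5.03-fold against 3.29-fold, because the rule reads the nearest birds and not the means.

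The birds of hour 22 spread as much in these genes as in others, with a median range over the 3 birds of 0.36 on the log2 scale against 0.35 over all genes that met the minimum. The rule reads the highest of these 3 birds, which can limit that range. In 73 genes the gap was larger than the whole range of the 12 earlier birds. The genes were chosen by that gap, which favours the count, and no share over all genes was computed for it. The lowest of all 15 birds was bird 2 of photosensitive hour 22 for 127 genes, bird 1 for 37, and the photorefractory bird for 36. The photorefractory bird lay between the photosensitive ones for 67 genes and was the highest of the 3 for 97. No share over all genes was computed for these counts of birds.

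Both states had similar differences at hour 22, a likeness to which the rule itself contributes. The median difference from hours 10 to 18 was -1.68 in photosensitive birds and -1.58 in the photorefractory bird. It was larger in the photosensitive state for 127 genes and larger in the photorefractory state for 73. The states were within 0.5 of each other on the log2 scale for 152 genes, or 76.0%, against 66.3% of all genes that met the minimum. The rule asks every bird of hour 22 to be low, which limits how far the states can differ.

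**Figure D3:**
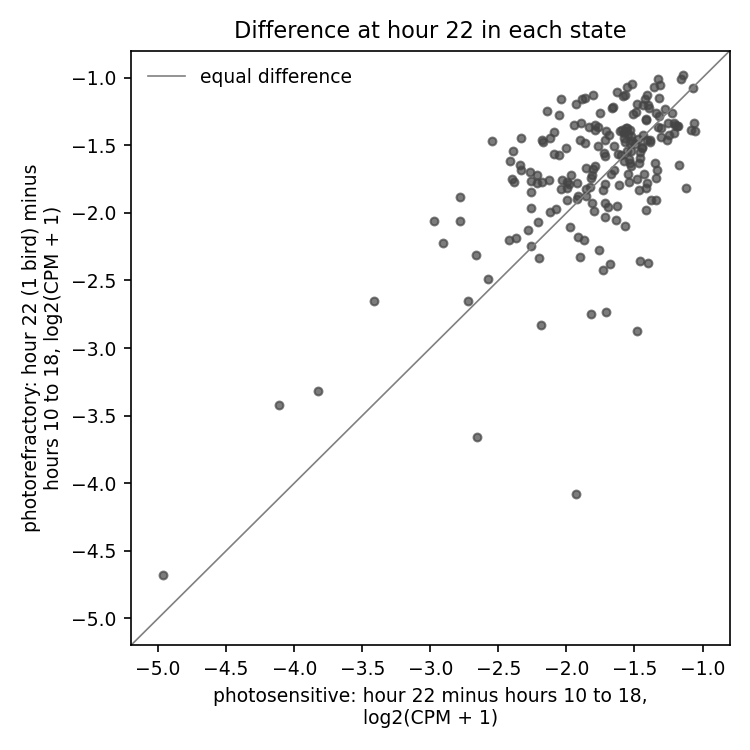
Difference between hour 22 and hours 10 to 18 in photosensitive birds (horizontal axis) and photorefractory birds (vertical axis, 1 bird at hour 22), in log2(CPM + 1), for each of the 200 genes. The line marks equal differences. Above it lie 127 genes, with the larger difference in photosensitive birds. The medians are -1.68 and -1.58, against -0.15 and -0.076 over all genes that met the minimum.

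Short assembled transcripts were common among the 200 genes, a feature the rule did not use. The most abundant transcript of each gene had a median length of 904 nt, with quartiles of 442.5 and 1412 nt, against a median of 1724 nt over all genes that met the minimum. The 200 genes of the mirrored rule, highest at hour 22, had a median of 2426 nt. Transcripts under 500 nt made up 61 of the 200 genes, or 30.5%, against 8.86% of all. Transcripts over 3000 nt made up 4, or 2%, against 25.6% of all and 37% of the mirrored genes.

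The shortest genes also had the largest differences. The 9 genes with differences above 8-fold had a median length of 251 nt, those above 4-fold and up to 8-fold 480.5 nt, those above 3-fold and up to 4-fold 1034 nt, and those of 3-fold or less 1348 nt. The same classes also differed in abundance, with median levels at hours 10 to 18 of 16.5, 33.3, 39.6 and 75.9 CPM. When all genes that met the minimum were split into 10 equal classes by length, the shortest class, 201 to 529 nt, held 67 of the 200 genes. The longest class, 4906 to 18410 nt, held 0. The share of genes with all 3 birds of hour 22 below the others was 29.6% in the shortest class and 9.07% in the longest, and the median difference at hour 22 went from -0.64 to 0.10. Members left aside, the shortest class still had a median difference of -0.60, so the pattern with length extended beyond these genes.

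**Figure D4:**
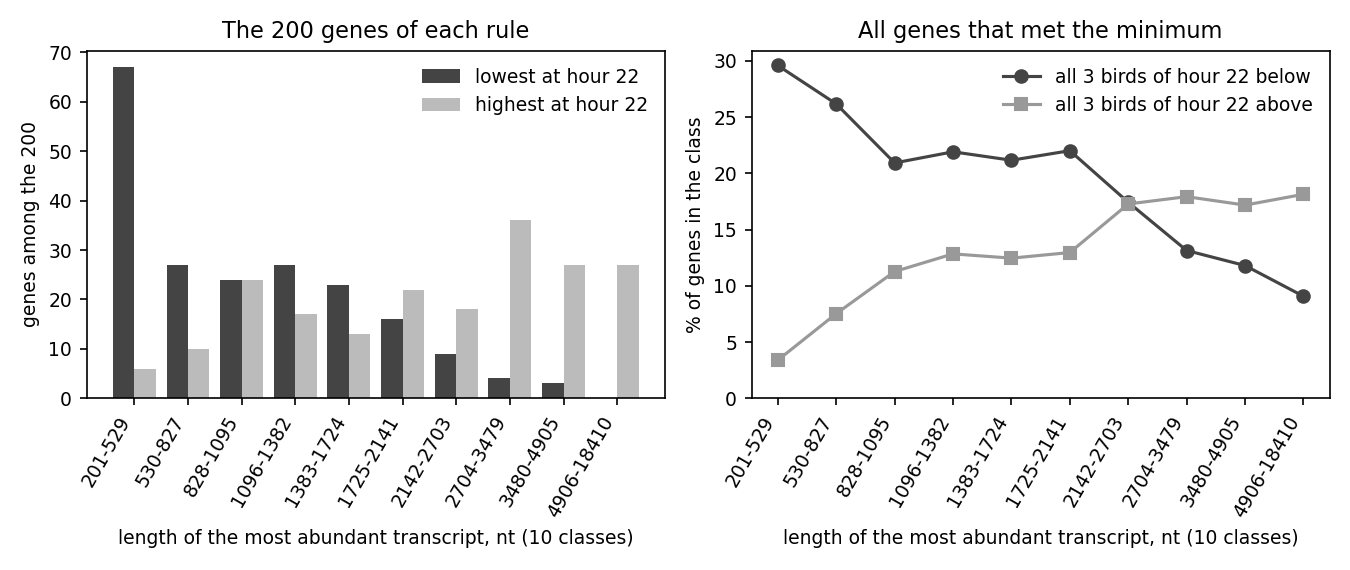
Left, number of the 200 genes lowest at hour 22 and of the 200 genes highest at hour 22 in each of 10 classes by length of the most abundant transcript (nt); right, share of all genes in each class whose 3 birds of hour 22 lay all below or all above the 12 earlier birds. The lowest genes number 67 in the shortest class and 0 in the longest, and the share below goes from 29.6% to 9.07%.

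The same axis of length was seen in single libraries. In each library the median shift of the longest class, measured from the mean of the 12 earlier birds, was subtracted from that of the shortest class. This value was -0.81 and -0.82 in the photosensitive birds of hour 22 and -0.55 in the photorefractory bird. Among the earlier birds it was lowest in bird 2 of photosensitive hour 10, at -0.41, and in bird 2 of photorefractory hour 14, at -0.33. It was highest in bird 2 of photosensitive hour 18, at 0.48, and in bird 1 of photorefractory hour 10, at 0.25. The median shift of the 200 genes was -0.37, -0.21, 0.34 and 0.22 in those same 4 libraries, the 2 lowest and the 2 highest of the 12. The part of this length pattern in the difference at hour 22 was not tested.

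**Figure D5:**
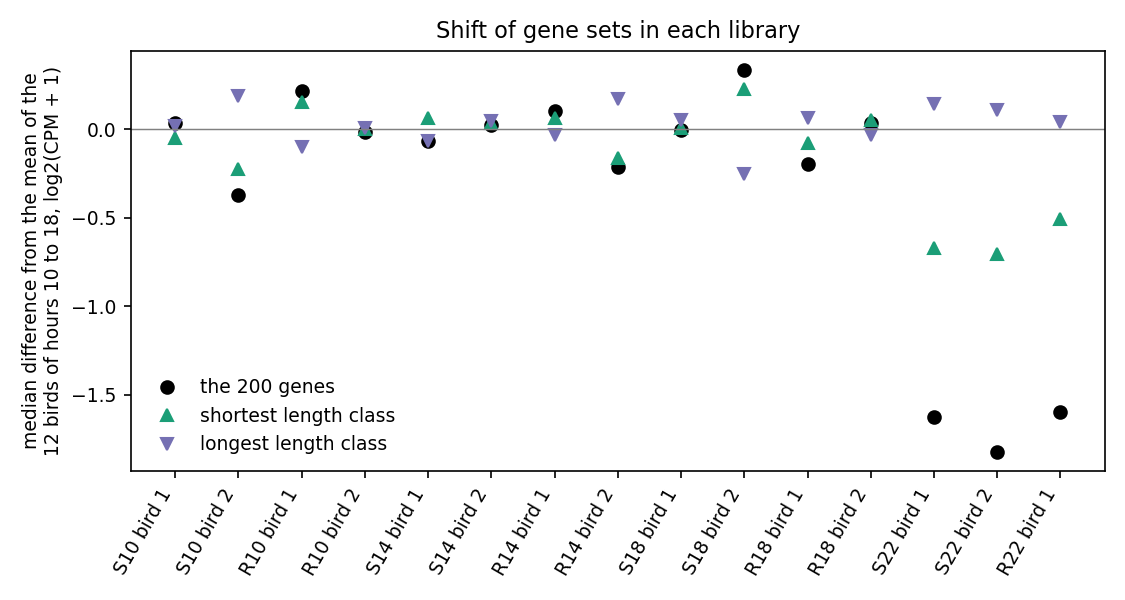
Median difference of each library from the mean of the 12 birds of hours 10 to 18, in log2(CPM + 1), for the 200 genes, for the shortest class of genes and for the longest class. In the birds of hour 22 the 200 genes lie at -1.62, -1.82 and -1.60 and the shortest class at -0.67, -0.71 and -0.51.

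The contrast that chose the genes was also read after scaling by effective length. In TPM, which divide each count by the effective length of the transcript and scale the library to 1000000, 195 of the 200 genes still had all birds of hour 22 below the others, against 11.8% of all genes that met the minimum. Their median difference was -1.41, and that of all genes was 0.10, so the median of all genes moved from -0.12 in CPM to 0.10 in TPM. With TMM factors it was -0.23, and the 200 genes had a median of -1.75. Relative to the median of all genes the 200 genes were at -1.52 in CPM, -1.52 with TMM factors and -1.51 in TPM. In TPM the shortest class had a median difference of -0.44 and the longest of 0.31. Effective length follows the fragment length of each library. The length classes differed at hour 22 in TPM as well, and the part of fragment length in this was not tested. The choice of the genes by this contrast favours the count of 195.

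The same contrast was read again with every library thinned to the total of the shallowest, since the hour 22 libraries were the deepest. Of the 200 genes, 188 still met the minimum, and all 188 had the 3 birds of hour 22 below the other 12, against 18.6% of all genes that met it. The medians were -1.69 for the 200 genes and -0.16 for all genes. The gaps by which the genes were chosen favour this outcome.

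Most of the 200 genes were simple in the assembly. A single transcript made up 114 of them, or 57%, against 25.0% of all genes that met the minimum and 7% of the mirrored genes. The rule took 3.37% of the genes with 1 transcript, 1.52% of those with 2 to 4 and 0.33% of those with 5 or more. The classes also differed in length, with medians of 974, 1672 and 2384 nt over all genes. Within the 1-transcript class the chosen genes were again the shorter ones, with a median of 711 nt.

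Single transcripts largely repeat the values that chose the genes, since most of the genes have 1 transcript, and are given as a description. The 200 genes had 449 transcripts, of which 314 had a mean of at least 1 CPM at hours 10 to 18. Of these, 295 were lower by mean at hour 22 and 19 higher, and 197 had all 3 birds of hour 22 below the rest, against 5.45% of all transcripts at that level. Among 59 genes with at least 2 such transcripts, 43 had all of them lower by mean. The most abundant transcript alone had non-overlapping birds in 180 of the 200 genes, a count for which no share over all genes was computed. In the 86 genes with several transcripts its share of the counts had a median of 93.6% both at hours 10 to 18 and at hour 22, and it moved by more than 10 percentage points down in 15 genes and up in 13.

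The rest of the assembly around these genes had smaller differences at hour 22, an outcome favoured by choosing the genes on that contrast. The assembler groups genes that share sequence into components, and the 200 genes lay in 196 components, 4 of which held 2 of them. Summed over whole components, 157 of the 196 had all birds of hour 22 below the others, against 15.3% of all components that met the minimum. The median difference was -1.27. Each sum holds the chosen gene itself, so the values that chose the gene carry over into it. For 153 genes the remaining genes of the component reached 1 CPM. Their sum had a median difference of -0.35, with all birds of hour 22 below the rest for 29 of the 153 genes and above for 6. Over all genes that met the minimum, 19.3% had all birds of hour 22 below, with a median difference of -0.12. The 29 are near that share, though these sums did not have to meet the minimum. For the 6 no single share over all genes was computed. The share of genes with all birds of hour 22 above was 3.39% in the shortest length class and 18.14% in the longest.

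At hours 10 to 18 the genes were not flat, and their highest groups were unevenly spread. The median over genes of the group mean, as log2(CPM + 1), was 5.29, 5.36 and 5.54 through hours 10, 14 and 18 in photosensitive birds. In photorefractory birds it was 5.61, 5.40 and 5.26. Photosensitive hour 18 was the highest of these 6 groups for 85 genes, or 42.5%, against 22.5% of all genes that met the minimum. Photorefractory hour 10 was the highest for 60, or 30%, against 11.6% of all.

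Single birds stood out in this. Among the 12 earlier birds the lowest was bird 2 of photosensitive hour 10 for 80 genes and bird 1 of photorefractory hour 18 for 46. The highest was bird 2 of photosensitive hour 18 for 82 genes, bird 1 of photorefractory hour 10 for 44 and bird 2 of photorefractory hour 18 for 34. Over all genes that met the minimum these birds were the lowest for 12.9% and 14.2% and the highest for 18.7%, 6.34% and 14.5%. Of these, bird 2 of photosensitive hour 10, bird 2 of photosensitive hour 18 and bird 1 of photorefractory hour 10 lay at the ends of the length axis above, whose part in the group levels was not tested. The SD over the 12 birds had a median of 0.33 on the log2 scale, against 0.36 over all genes. The rule asks the lowest earlier bird to be high, which favours genes that vary little among those birds.

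The state of the bird was tested over the 12 birds of hours 10 to 18, with hour as a term. The rule did not rank genes by this contrast. It does read the lowest of these 12 birds, which limits how far a gene can fall in any 1 group. The same limit holds for the tests of the hours and of the interactions below. In the quasi-likelihood F-test of edgeR, with Benjamini-Hochberg adjustment over 57638 genes, 0 of the 200 genes passed an adjusted p of 0.05, against 0.00173% of all genes tested. The smallest adjusted p among the 200 was 0.128 in that edgeR test. At an unadjusted p under 0.05, 26 were higher and 3 lower in photorefractory birds, or 13% and 1.5%. Over all genes that met the minimum those shares were 13.8% and 5.07%, so the share of higher genes was near the background. DESeq2 called 3 of the 200, or 1.5%, against 4.38% of all genes that met the minimum, and limma on TPM 0. The median log2 fold change was 0.08, and 126 of the 200 were higher by estimate, or 63%, against 0.08 and 59.5% of all. Without both libraries of photorefractory hour 18, a fit chosen after seeing the data, 176 were higher with a median of 0.22. All genes that met the minimum then had 64.15% higher and a median of 0.095. Over all 12 birds the direction of the median rested on single birds. Leaving out bird 2 of photosensitive hour 10 gave a median of -0.032 with 91 higher, and leaving out bird 1 of photorefractory hour 10 gave 0.0039 with 100 higher. All genes that met the minimum had medians of 0.055 and 0.064 in those fits. At an unadjusted p under 0.05 in edgeR's F-test the former fit had 13 higher and 12 lower, and the latter 15 and 5. All genes that met the minimum had 14.9% higher and 7.46% lower in the former, and 14.1% and 6.66% in the latter.

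The hours showed the same lack of calls. From hour 10 to hour 14, with state as a term, 0 of the 200 genes passed in edgeR's F-test, against 0% of all genes tested, and DESeq2 and limma also called 0. At an unadjusted p under 0.05, 0 were higher and 2 lower, where all genes had 0.855% and 0.664%. From hour 10 to hour 18, 0 passed, against 0.00694% of all genes tested, with DESeq2 at 3, or 1.5%, against 1.36% of all genes that met the minimum, and limma at 0. Here 29 genes were higher and 6 lower at an unadjusted p under 0.05, or 14.5% and 3%, beside 8.71% and 4.45% of all genes. The median log2 fold change to hour 18 was 0.20, against 0.10 over all genes. Without bird 1 of photorefractory hour 10 that median was 0.304, and without bird 1 of photorefractory hour 18 it was 0.295. All genes then had 0.125 and 0.103. Leaving out bird 2 of photosensitive hour 10 gave 0.0070, and leaving out bird 2 of photosensitive hour 18 gave -0.019, so the median rested on those birds. In these last fits all genes had medians of 0.063 and 0.072. In the former fit 1 gene passed, a lower one, beside 2 higher and 12 lower of all 13561 genes that met the minimum. The unadjusted counts moved too, to 17 higher and 14 lower without the former bird, 17 and 8 without the latter, and 14 and 4 without bird 2 of photorefractory hour 18. All genes then had 6.8%, 7.43% and 6.16% higher, and 5.87%, 5.27% and 2.89% lower.

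The states were also taken 1 at a time. In photosensitive birds alone, 171 of the 200 genes were higher by estimate at hour 18 than at hour 10, with a median log2 fold change of 0.50, and 0 passed the adjusted test. In photorefractory birds alone, 71 were higher, with a median of -0.15, and 2 passed in edgeR's F-test, 1 higher and 1 lower, or 1%, against 1.44% of all genes that met the minimum. All genes had 61.4% and 55.5% higher by estimate in those fits. Between the states, 187 of the 200 were higher in photorefractory birds at the first of the 3 hours, 101 at the next and 78 at the last, with medians of 0.41, 0.0061 and -0.19 and with 0 passing at each hour. All genes that met the minimum had 67.3%, 49.2% and 55.7% higher, with medians of 0.17, -0.0062 and 0.09. Each of these fits compared 2 birds with 2. Bird 2 of photosensitive hour 10, bird 2 of photosensitive hour 18 and bird 1 of photorefractory hour 10, which stood out above, entered those of hours 10 and 18. Their part in these values was not tested.

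Whether the course differed between the states was tested with the interaction of state and hour. For hour 14, 0 of the 200 genes passed in the quasi-likelihood F-test of edgeR, adjusted as before, against 0% of all genes tested, and 0 by DESeq2 and limma. At an unadjusted p under 0.05, 1 was higher and 12 lower in the photorefractory course, or 0.5% and 6%, with 1.65% and 4.56% over all genes. For hour 18, 1 gene passed, with a lower course in photorefractory birds, or 0.5%, against 0.567% of all genes tested. At an unadjusted p under 0.05, 56 were lower and 2 higher, or 28% and 1%, beside 13.9% lower and 6.45% higher over all genes. DESeq2 called 10 of the 200, or 5%, against 4.06% of all genes that met the minimum, and limma 0. The count of lower genes shrank most when certain single birds were left out. These were bird 2 of photosensitive hour 10, bird 2 of photosensitive hour 18 and bird 1 of photorefractory hour 10. Each loss left 1 bird in its group, and the share over all genes fell too. The excess in that count over all genes thus rested on single birds. The medians for these losses, and for the loss of either bird of photorefractory hour 18, are given below.

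The median interaction at hour 18 was -0.64 over the 200 genes and -0.10 over all genes that met the minimum. Leaving out bird 2 of photosensitive hour 10 gave -0.33 for the 200 genes, and leaving out bird 2 of photosensitive hour 18 gave -0.29. Without bird 1 of photorefractory hour 10 it was -0.41. Over all genes that met the minimum these medians were -0.029, -0.0077 and -0.020, so the 200 genes stayed lower by median. Leaving out bird 1 of photosensitive hour 10 gave -0.94, and bird 1 of photosensitive hour 18 gave -0.80. Without bird 1 and bird 2 of photorefractory hour 18 in turn the median was -0.47 and -0.77. Over all genes that met the minimum it was then -0.11 and -0.07, so the 200 genes stayed lower. The losses of single birds spanned -0.94 to -0.29, and -0.14 to -0.0077 over all genes that met the minimum. By limma on log2(TPM + 1) the medians were -0.25 for the 200 genes and 0.25 for all genes. The number of genes that passed went to 13 without bird 1 of photosensitive hour 18, or 6.5%, where 6.28% of all genes that met the minimum passed. Other single losses moved that number up or down. Each such fit leaves 1 bird in a group, and nothing is read from its count.

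The gene that passed was TRINITY_DN84831_c0_g8, a single transcript of 427 nt in a component of 8 genes. Its level was 69.3 and 104 CPM in the photosensitive pair of hour 10, 177 and 132 in that of hour 14, and 150 and 348 in that of hour 18. The photorefractory pairs of the same hours had 94.3 and 95.7, 147 and 71.6, and 42.7 and 48.8 CPM. At hour 18 the states did not overlap, with both photosensitive birds above and both photorefractory birds below all birds of hour 10. The levels at hour 22, 19.3 and 15.7 CPM in photosensitive birds and 17.5 CPM in the photorefractory bird, were alike in both states. The interaction at hour 18 was -2.79 on the log2 scale (SE 0.594, n = 2 birds per group) and its adjusted p in edgeR's F-test was 0.0488. Over 21 alternatives, in edgeR, DESeq2 and limma, the value ranged from -3.27 to -1.87 and the adjusted p from 1.07e-07 to 0.453, and 5 of them kept the call. Leaving out bird 2 of photosensitive hour 18, the highest of all, gave -1.87, at an adjusted p of 0.25 in edgeR's F-test.

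The difference between the states in the hour 22 contrast was fitted over all 15 birds, with the single photorefractory bird of hour 22 assumed to vary like the other groups. The rule used these values and limits how far the states can differ, so the fit is a description and no test of these genes. The median was -0.013 over the 200 genes, 99 of which were above 0, and the median SE of a single gene was 0.47. In edgeR's F-test 0 of the 200 genes passed, against 0% of 70517 genes tested, and nothing is read from that count.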

How the data were processed

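Hypothalamus RNA of 15 birds, 1 library per bird, was sequenced after ribosomal depletion. The authors trimmed reads with Trimmomatic, assembled them with Trinity, reduced redundancy with CD-HIT and pseudoaligned them with kallisto (version not given in the sources used). The deposited estimated counts are per transcript and not normalized, and the deposited TPM are scaled by effective length to 1000000 per library. Both were summed per assembled gene, being the identifier without its transcript suffix.

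The members and lists were chosen with earlier results of these data known. Replicates are separate birds. Estimated counts were rounded and tested with edgeR 4.0.16 (R 4.3.3), TMM factors and a minimum of 5 counts in 2 libraries, over the 12 libraries of hours 10 to 18, or all 15 for the state by hour 22. Standard errors were taken from the F statistic. All 200 genes met this minimum because the rule requires counts. On simulated data the rule and tests were checked. Alternatives were a pseudocount of 0.1, TMM or RLE factors, limma 3.58.1 on TPM (log2 after adding 1 or 0.1), DESeq2 1.42.0, other minimums, thinning, the most abundant transcript, pairwise fits, a block for the bird number and the loss of each bird in turn. Component sums, the loss of both photorefractory hour 18 libraries and the loss of the photorefractory hour 22 bird were chosen after seeing the data. Mean fragment length was the length minus the effective length of transcripts over 2000 nt.

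Named are the 2 genes of largest gap, the 2 most abundant, and per test at most 2 higher and 2 lower among genes that passed. Figures were drawn with matplotlib 3.10.9.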

Additional observations from a re-analysis of the deposited data

Results flagged for a closer look

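TRINITY_DN84831_c0_g8 was set aside because its change from hour 10 to hour 18 differed between the states by the interaction test itself, at -2.79 on the log2 scale. Both photosensitive birds of hour 18 were above all 4 birds of hour 10, and both photorefractory birds of hour 18 were below them. In edgeR's quasi-likelihood F-test the adjusted p, 0.0488, lies next to the threshold, and 5 of 21 alternatives kept the call.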

How the results depend on the processing

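Of the 200 genes, 143 to 189 were chosen again with another pseudocount, scale, minimum or thinning. This was 129 without the photorefractory hour 22 bird and 60 without both libraries of photorefractory hour 18, and 129 to 199 with each bird left out. Genes with non-overlapping birds numbered 1597 in TPM against 2621. The median difference of the 200 genes was -1.41 in TPM and -1.27 over component sums, against -1.65, and -1.71 to -1.60 with each bird left out. In tests, DESeq2 called 3 genes for the state, 3 for hour 18, 10 for the state by hour 18 and 1 for the state by hour 22, which is no test here because the rule used those values. With no minimum on counts edgeR called 5 for the state, 6 for hour 18, 16 for the state by hour 18 and 2 for the state by hour 14. Of all 13561 genes that met the minimum of the rule, it then called 357 higher and 132 lower for the state. For hour 18 it called 73 and 156, for the state by hour 18 149 and 471, and for the state by hour 14 26 and 38. For the state by hour 18, 0 were called with RLE factors, a minimum of 10, thinning, the most abundant transcript, and limma with either pseudocount. Of all 13561 genes that met the minimum of the rule, 12 were called higher and 75 lower with RLE factors. These counts were 9 and 67 with a minimum of 10, and 11 and 96 with thinning. By limma they were 3 and 35 after adding 1, and 7 and 57 after adding 0.1. Photorefractory birds alone gave 2 calls at hour 18. With each bird left out the calls ranged from 0 to 1 for hour 18 and from 0 to 13 for the state by hour 18, and stayed at 0 for the other tests. The cause of these moves was not tested.

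Bird numbers only share a number: over 21 pairs of groups the correlation of deviations was -0.537 to 0.284 (median -0.0417), with 7 over 0.1. With the replicate block the state by hour 18 had 0 calls against 1, TRINITY_DN84831_c0_g8 having 0.0574 as its adjusted p in edgeR's F-test. No other count of calls moved. The state by hour 22 could not be fitted without the photorefractory hour 22 bird.

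With 2 birds per group and 1 at photorefractory hour 22, the tests have little reach for single genes. Hour 22 was also the hour of the strongest length pattern, and the one cannot be told apart from the other in 3 libraries.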
